A study of Mus musculus with 12 samples.

Results

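EGR1, EGR2 and EGR3 (early growth response) and IER2, IER3 and IER5 (immediate early response) are 6 immediate early genes, taken by symbol from a table of 36292 human gene symbols. All 6 were in the table, and all 6 were among the 15836 genes that passed the low-count filter and were tested. Bulk RNA came from xenografts of 1 cell line, Hep3B, which derives from a human liver cancer and was implanted under the skin of female BALB/c nu/nu mice, hosts that lack T cells but supply vessels, stroma and innate immune cells. The mice were about 8 weeks old at injection and were randomized at a mean tumor volume of about 500 mm3. Each group had 3 tumors from 3 mice. One group received both drugs (combination), one received H3B-6527 alone (300 mg/kg), one lenvatinib alone (10 mg/kg) and one vehicle, with the same doses in the combination. All were dosed by mouth once daily, and all tumors were collected 8 hours after dose 4. H3B-6527 blocks FGFR4, the main FGF receptor of hepatocytes, and lenvatinib inhibits several receptor tyrosine kinases, among them the VEGF and FGF receptors.

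Immediate early genes are switched on within minutes of a growth factor or stress signal, without the need for new protein. In the FGF pathway the receptor activates the kinase ERK, which phosphorylates ternary complex factors such as ELK1 that sit with SRF on the promoters of EGR1 and related genes. The EGR proteins are zinc finger transcription factors that bind GC-rich sites and induce their own co-repressor NAB2. The IER genes encode short-lived proteins: IER3 modulates cell survival and ERK signaling, IER5 is a cofactor of the heat shock factor HSF1, and IER2 is a nuclear protein linked to transcription and cell motility.

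Library totals ran from 23.8 to 40.9 M (mega) counts, the lowest being H3B-6527 replicate 3. Levels are given as CPM, counts per M of the library total after TMM scaling (trimmed mean of M values), and 3 counts correspond to 0.126 CPM in the smallest library and 0.0762 in the largest. CPM is not corrected for transcript length, so levels are compared between tumors and never between genes. In bulk tumors, fewer cells that express a gene and less RNA per cell cannot be told apart. The p-values set a group difference against the spread between tumors of separate mice. All 10 hepatic markers listed for Hep3B, ALB and AFP among them, were detected. All 7 endothelial markers in the table were under 1 CPM in every tumor, as looked up by human symbol. Lenvatinib replicate 1 had lower levels of EGR1, EGR2, IER2, IER3 and IER5 than the other lenvatinib tumors, and results that turn on it are also given without it. In that tumor 3 of the 6 genes, and 1.40% of all genes, were at least 1 log2 unit below the mean of the other lenvatinib tumors. By the same measure H3B-6527 replicate 1 had 2 of the 6 genes (EGR1 and EGR3) and 3.41% of all genes, and H3B-6527 replicate 3 had 0 of the 6 and 3.12% of all genes. Every other tumor had at most 1 of the 6 and at most 1.70% of all genes.

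EGR1, IER3, EGR2 and IER2 fell with H3B-6527, while EGR3 and IER5 did not pass the test. The falls of EGR1 and IER3 were the deepest, to 4.39% and 3.69% of the vehicle mean. IER2 kept 33.5% of its vehicle mean, and IER5 97.5%. Of the 6 genes, 4 were called lower at an adjusted p under 0.05, against 24.3% of all genes tested, and the same 4 had every H3B-6527 tumor below every vehicle tumor, against 27.9% of all genes. Over all genes 3987 were higher and 3842 lower, and scaling by library totals alone moved this to 3022 higher and 4960 lower by shifting the median of all genes by −0.12 on the log2 scale.

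EGR1, a transcription factor whose own promoter is a standard readout of ERK and SRF activity, had 2.08, 2.63 and 7.50 CPM in the H3B-6527 tumors, against 91.8, 103 and 83.7 CPM in the vehicle tumors. The highest H3B-6527 tumor thus lay far under the lowest vehicle tumor. EGR1 fell, with a log2 fold change of −4.58 ± 0.76 (SE, adjusted p = 6.53e-04 by the edgeR quasi-likelihood test, n = 3 per group), rank 28 from the lowest value among the 15836 genes. Without H3B-6527 replicate 3, the tumor with the highest EGR1 level in its group, the value was −5.30, and without H3B-6527 replicate 1 it was −4.27. Over all alternatives the adjusted p of EGR1 ran from 5.36e-09 to 0.00953.

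IER3, which is induced by ERK, NF-kB and stress signals, had 2.03, 1.87 and 3.18 CPM with H3B-6527, against 64.3, 57.7 and 70.1 CPM with vehicle. These groups were far apart and each was narrow. IER3 fell by 4.80 ± 0.47 (SE, adjusted p = 1.21e-05 by edgeR, n = 3 per group), rank 23 from the lowest of all genes tested.

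EGR2, known for its role in myelinating Schwann cells and in T cells, was close to the detection limit. It had 3, 1 and 2 counts in the H3B-6527 tumors, against 20, 10 and 16 counts in the vehicle tumors. The pooled ratio of H3B-6527 to vehicle was 0.148, with an exact 95% counting interval of 0.0517 to 0.348 that leaves out differences between tumors. EGR2 fell by 2.69 ± 0.68 (SE, adjusted p = 0.00572 by edgeR, n = 3 per group), a fitted value that depends on the few counts.

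EGR3, a relative of EGR1 that is induced in activated lymphocytes and muscle spindles, had 1, 9 and 8 counts with H3B-6527, against 4, 6 and 8 counts with vehicle. The groups overlapped. Its log2 fold change was 0.23 ± 0.76 (adjusted p = 0.821 by edgeR, n = 3 per group), and the pooled ratio of 1.14 had a counting interval of 0.557 to 2.31. Without H3B-6527 replicate 1 the log2 fold change of EGR3 was 0.82, also with no call. That interval leaves out differences between tumors and is not a limit of detection. At this depth, changes of EGR3 inside or beyond it may go undetected.

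IER2 had 3.14, 2.06 and 1.68 CPM in the H3B-6527 tumors, against 7.15, 6.39 and 6.96 CPM in the vehicle tumors. It fell by 1.55 ± 0.24 (SE, adjusted p = 1.99e-04 by edgeR, n = 3 per group). The order of the tumors was the reverse of that for EGR1: replicate 3, highest of its group for EGR1, was lowest for IER2. IER5 had 5.07, 3.50 and 4.73 CPM with H3B-6527, against 4.30, 4.51 and 4.83 CPM with vehicle, so the vehicle values lay inside the H3B-6527 range. Its log2 fold change was −0.04 ± 0.15 (adjusted p = 0.851 by edgeR).

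**Figure D1:**
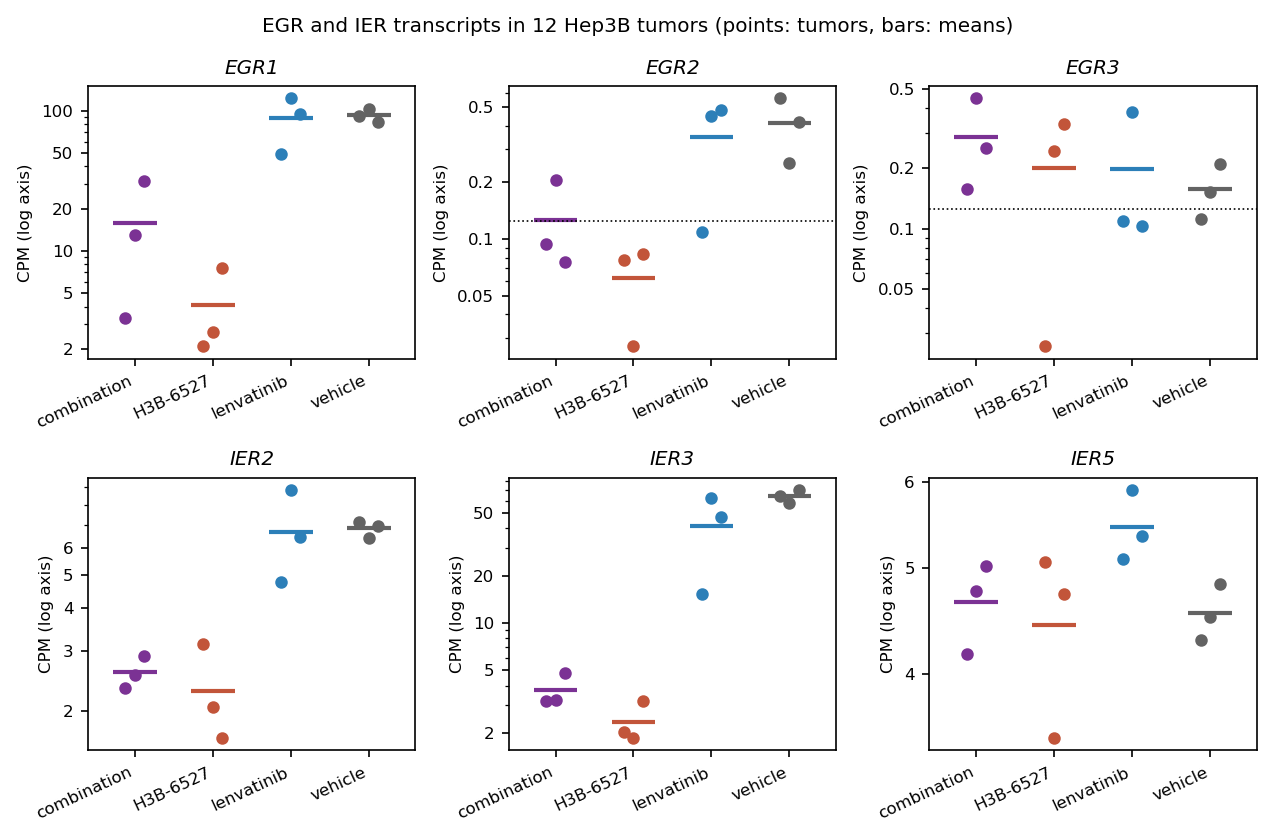
CPM on a log axis of each of the 6 genes in the 12 tumors, by group, with points for tumors and bars for means of 3. EGR1, EGR2, IER2 and IER3 are lower in the combination and H3B-6527 tumors than in vehicle tumors, while IER5 stays between 3.50 and 5.90 CPM in all 12. The dotted line for EGR2 and EGR3 marks 0.126 CPM, which is 3 counts in the smallest library.

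The ratio of members within a library does not depend on how libraries are scaled. The log2 ratio of IER3 to IER5 counts averaged −0.93 ± 0.37 with H3B-6527 and 3.81 ± 0.12 with vehicle (SD, n = 3 each), with no overlap. The exact two-sided permutation test gave p = 0.1, the smallest that 3 tumors against 3 can give, or 0.182 adjusted over the 20 ratio comparisons. The ratio of EGR1 to IER3 averaged 0.59 ± 0.61 with H3B-6527 and 0.53 ± 0.29 with vehicle (SD, n = 3 each) and overlapped (exact permutation p = 1).

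The combination against vehicle called the same 4 genes lower, against 25.3% of all genes tested. These 4 also had no overlap between the groups, as did 32.8% of all genes in that direction. Over all genes 3924 were higher and 4006 lower, or 2923 and 5339 with library totals alone, under which the median gene moved by −0.15. The H3B-6527 and combination comparisons share the vehicle tumors, so their values stand side by side here and are not independent of each other. IER3 had 3.19, 3.25 and 4.83 CPM in the combination tumors, against 64.3, 57.7 and 70.1 CPM in the vehicle tumors. It fell by 4.08 ± 0.44 (SE, adjusted p = 2.45e-05 by edgeR, n = 3 per group), rank 29 from the lowest.

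EGR1 was less uniform in the combination group, with 3.32, 12.9 and 31.4 CPM, against 91.8, 103 and 83.7 CPM in the vehicle group. The combination tumors differed widely among themselves, and the highest was still below every vehicle tumor. EGR1 fell by 2.53 ± 0.67 (SE, adjusted p = 0.00922 by edgeR, n = 3 per group). The call was lost when the 2 groups were fitted alone (adjusted p = 0.0515, range over alternatives 9.33e-04 to 0.0515), and the value was −3.52 without combination replicate 3.

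IER2 had 2.34, 2.56 and 2.90 CPM in the combination tumors, against 7.15, 6.39 and 6.96 CPM in the vehicle tumors, and fell by 1.39 ± 0.24 (adjusted p = 4.15e-04 by edgeR, n = 3 per group). The spread of IER2 within the combination group was small, unlike that of EGR1. EGR2 had 3, 6 and 3 counts with the combination, against 20, 10 and 16 with vehicle, and fell by 1.72 ± 0.60 (adjusted p = 0.0302). Leaving out vehicle replicate 1 ended the EGR2 call (adjusted p = 0.105), as did leaving out vehicle replicate 3 (0.0661), combination replicate 1 (0.0909) or combination replicate 3 (0.107), with a range over alternatives of 0.0172 to 0.107. EGR3 had 5, 13 and 10 counts with the combination, against 4, 6 and 8 with vehicle (log2 fold change 0.82 ± 0.71, adjusted p = 0.357). IER5 had 4.17, 4.77 and 5.03 CPM with the combination, against 4.30, 4.51 and 4.83 CPM with vehicle, and its log2 fold change was 0.04 ± 0.15 (adjusted p = 0.870).

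**Figure D2:**
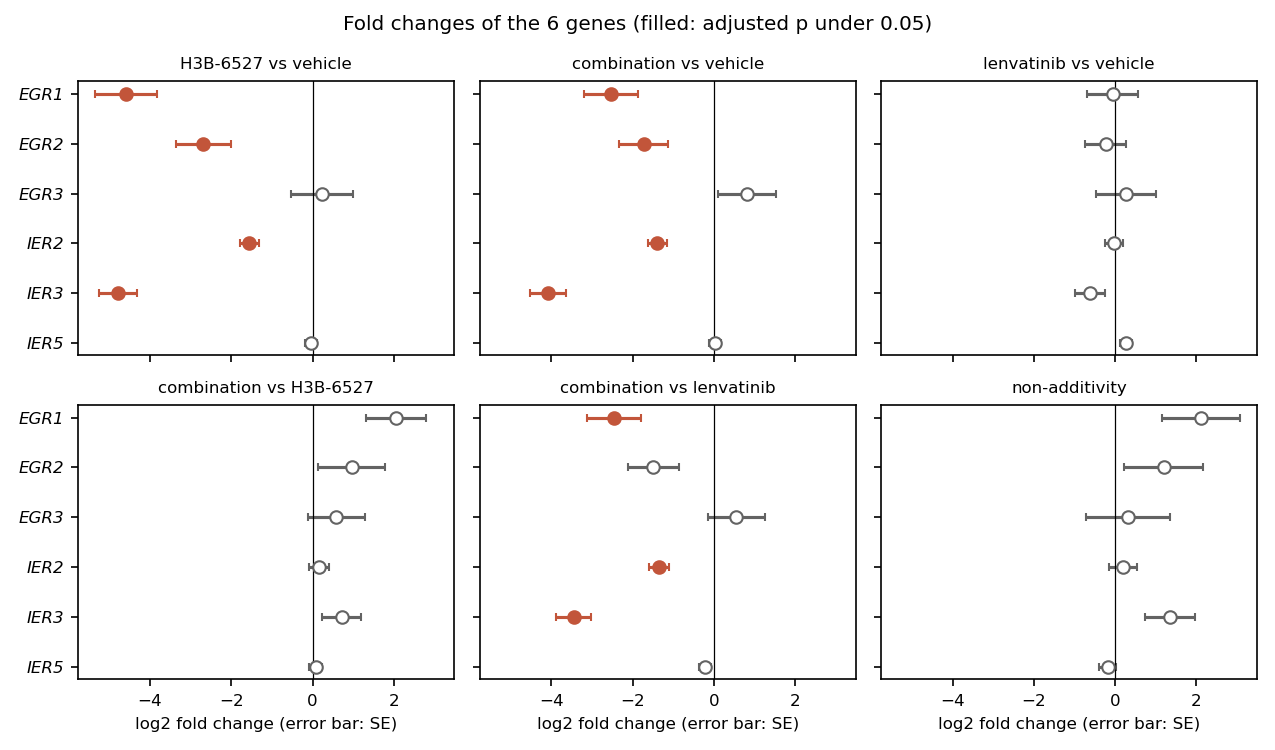
Log2 fold change with SE of the 6 genes in 5 comparisons of groups and in the non-additivity contrast, where filled points have adjusted p under 0.05 (edgeR, 3 tumors per group). The filled points are lower for EGR1, EGR2, IER2 and IER3 against vehicle with H3B-6527 and the combination, and for EGR1, IER2 and IER3 in the combination against lenvatinib.

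With lenvatinib alone none of the 6 genes passed the test. EdgeR called 0 of the 6 against vehicle, as it did 0% of all 15836 genes, and 0 had an unadjusted p under 0.05, against 10.7% of all genes. DESeq2 called 0 of the 4 to which it gave an adjusted p, against 1.71% of all genes with one, and voom called 0 of 6, against 0.0505% of all genes. EGR1 had 49.0, 122 and 95.1 CPM with lenvatinib, against 91.8, 103 and 83.7 CPM with vehicle, and its log2 fold change was −0.06 ± 0.62 (adjusted p = 0.984 by edgeR, n = 3 per group). IER3 had 15.2, 61.9 and 47.2 CPM with lenvatinib, against 64.3, 57.7 and 70.1 CPM with vehicle (−0.63 ± 0.37, adjusted p = 0.599). The groups overlapped for both genes. Within libraries, the log2 ratio of IER3 to IER5 counts averaged 2.70 ± 0.98 with lenvatinib and 3.81 ± 0.12 with vehicle, and that of EGR1 to IER3 averaged 1.23 ± 0.40 with lenvatinib and 0.53 ± 0.29 with vehicle (SD, n = 3 each). Neither ratio overlapped between the groups, and each had an exact permutation p = 0.1, or 0.182 adjusted over the 20 ratio comparisons. Both of these ratios hold IER3, so they are not separate results. The ratios without IER3 overlapped between lenvatinib and vehicle, with exact permutation p = 0.7 for EGR1 to IER2 and 0.3 for IER2 to IER5. By tumor, IER3 to IER5 was 1.58, 3.39 and 3.14 with lenvatinib, against 3.90, 3.68 and 3.86 with vehicle. EGR1 to IER3 was 1.69, 0.98 and 1.01 with lenvatinib, against 0.51, 0.83 and 0.25 with vehicle. Lenvatinib replicate 1, given first, was furthest from vehicle in both ratios, and the other lenvatinib tumors lay nearer.

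The low values of EGR1 and IER3 were those of lenvatinib replicate 1, which had 45.0% of the mean of the other lenvatinib tumors for EGR1 and 27.9% for IER3. For EGR2 it had 4 counts, against 14 and 19 in the other lenvatinib tumors, and for IER2 it had 62.4% of their mean. IER5 was at 90.5% of their mean. Without this tumor the IER3 value against vehicle was −0.23 and that of EGR1 was 0.23, neither called. The same tumor was also low in genes outside the set. The median of 15 ERK-induced feedback genes was −0.78 log2 units from the vehicle mean in it, against −0.05 and −0.16 in the other lenvatinib tumors. It was likewise lowest for 12 NF-kB feedback genes (−0.53, against −0.13 and −0.07) and 31 other immediate early genes (−0.35, against 0.23 and 0.18). For 12 HSF1 list genes the median was −0.19, against −0.0031 and −0.09. That of 8 proliferation markers was 0.01, against −0.09 and −0.23. The part of this tumor in other differences was not tested, and no test was made of a single tumor.

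IER2 had 4.77, 8.85 and 6.44 CPM with lenvatinib, against 7.15, 6.39 and 6.96 CPM with vehicle (log2 fold change −0.04 ± 0.23, adjusted p = 0.975 by edgeR). IER5 had 5.10, 5.90 and 5.36 CPM with lenvatinib, each above the 4.30, 4.51 and 4.83 CPM of the vehicle tumors. That separation is shared by 11.8% of all genes in that direction, and the log2 fold change of 0.26 ± 0.15 did not pass the test (adjusted p = 0.591). EGR2 had 4, 14 and 19 counts with lenvatinib, against 20, 10 and 16 with vehicle (−0.23 ± 0.51, adjusted p = 0.918). EGR3 had 4, 12 and 4 counts with lenvatinib, against 4, 6 and 8 with vehicle (0.27 ± 0.74, adjusted p = 0.939).

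The combination against H3B-6527 compares tumors given both drugs with tumors given H3B-6527 alone. EdgeR called 0 of the 6 genes in either direction (0.0126% of all genes were called), with 1 of the 6 at an unadjusted p under 0.05, against 9.42% of all genes. DESeq2 called 0 of the 4 with an adjusted p (0.671% of all genes with one), and voom 0 of 6 (0.0126%). That gene was EGR1, with 3.32, 12.9 and 31.4 CPM in the combination tumors, against 2.08, 2.63 and 7.50 CPM in the H3B-6527 tumors. The groups overlapped through the lowest combination and the highest H3B-6527 tumor. The log2 fold change was 2.05 ± 0.73 (adjusted p = 0.433) and was 1.06 without combination replicate 3 and 2.78 without H3B-6527 replicate 3, with adjusted p from 0.231 to 0.872 over all alternatives. IER3 had 3.19, 3.25 and 4.83 CPM with the combination, just above the 2.03, 1.87 and 3.18 CPM with H3B-6527. It had no overlap, as 5.95% of all genes in that direction, but did not pass the test (0.72 ± 0.48, adjusted p = 0.676). The margin was narrow, with 3.194 CPM in combination replicate 1 against 3.183 CPM in H3B-6527 replicate 3. These tumors had 101 counts in 32.8 M and 76 counts in 23.8 M, so without TMM scaling their order would reverse. IER2 (0.16 ± 0.25), IER5 (0.07 ± 0.15), EGR2 (0.97 ± 0.83) and EGR3 (0.59 ± 0.71) also had positive values that did not pass.

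The combination against lenvatinib called EGR1, IER2 and IER3 lower, 3 of 6 against 20.9% of all genes tested. EGR1, IER2, IER3 and IER5 had every combination tumor below every lenvatinib tumor, against 29.7% of all genes. Over all genes 3020 were higher and 3309 lower, or 2293 and 4348 with library totals alone, which shifted the median by −0.10. EGR1 fell by 2.47 ± 0.67 (SE, adjusted p = 0.0142 by edgeR, n = 3 per group), a call lost in the fit of the 2 groups alone (0.0899, range over alternatives 0.00220 to 0.0899). IER3 fell by 3.45 ± 0.43 (adjusted p = 1.58e-04) and IER2 by 1.36 ± 0.24 (adjusted p = 8.84e-04). EGR2 had a value of −1.49 ± 0.62 (adjusted p = 0.0717), and passed without lenvatinib replicate 1 (−1.92, adjusted p = 0.0168, range over alternatives 0.0168 to 0.235). EGR3 (0.55 ± 0.70, adjusted p = 0.555) and IER5 (−0.23 ± 0.15, adjusted p = 0.260) did not pass.

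The non-additivity contrast takes the combination minus both single agents plus vehicle on the log2 scale. EdgeR called 0 of the 6 genes in it, as 0% of all genes. DESeq2 called 0 of the 5 to which it gave an adjusted p, all but EGR3, and 0.116% of all genes with one, while voom called 0 of 6 and 0% of all genes. At an unadjusted p under 0.05 there was 1 of the 6, against 5.39% of all genes. It was IER3, with 1.35 ± 0.61 (adjusted p = 0.916 by edgeR), or 0.95 without lenvatinib replicate 1. EGR1 had 2.11 ± 0.96 (adjusted p = 0.917) and EGR2 1.20 ± 0.97 (adjusted p = 0.938). Over all alternatives the value of EGR1 ran from 1.12 without combination replicate 3 to 2.84 without H3B-6527 replicate 3, and was 1.82 without lenvatinib replicate 1, with no call.

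By mean level, EGR1, EGR2, IER2 and IER3 had one order, with vehicle highest, then lenvatinib, the combination and H3B-6527. Vehicle and lenvatinib overlapped for these 4 genes. The step from lenvatinib to the combination had no overlap for EGR1, IER2 and IER3, and overlapped for EGR2. Over all genes, 29.7% had every combination tumor below every lenvatinib tumor. The step from the combination to H3B-6527 overlapped for 3 of these genes and had no overlap for IER3, by a narrow margin that depends on the scaling. Over all genes, 5.95% had every combination tumor above every H3B-6527 tumor. EGR3 had the combination highest and vehicle lowest, with overlap at each step. IER5 had lenvatinib highest, then the combination, vehicle and H3B-6527. Its step from lenvatinib to the combination also had no overlap, and its later steps overlapped.

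**Figure D3:**
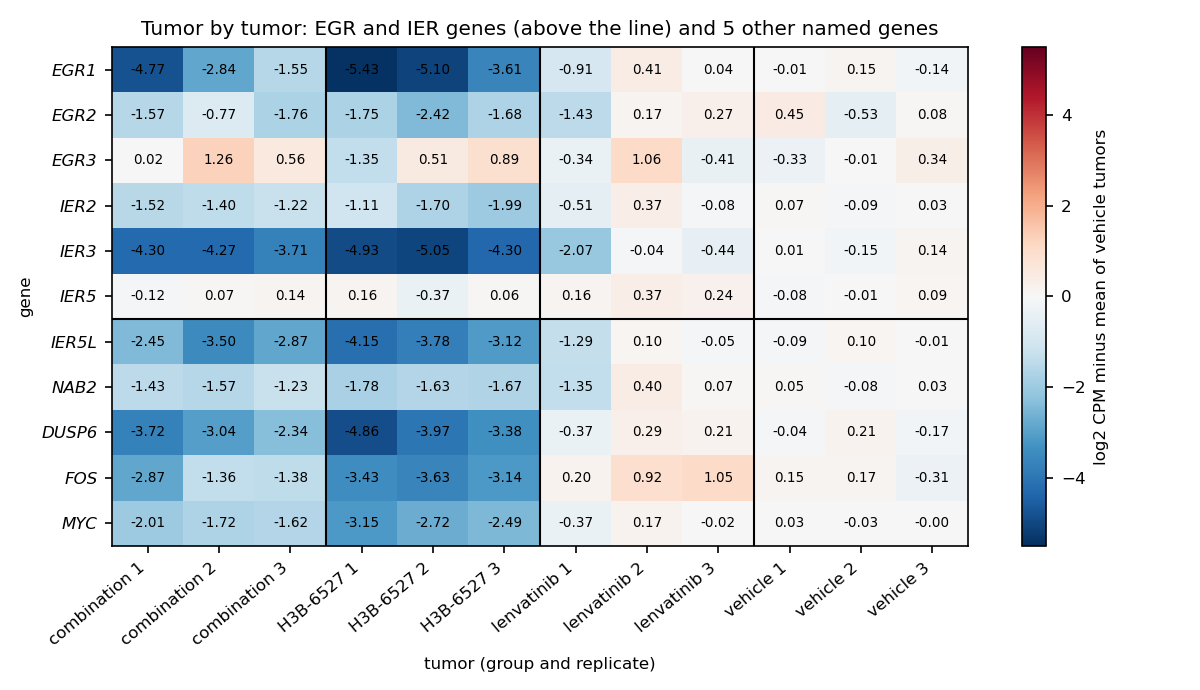
Log2 CPM minus the mean of the 3 vehicle tumors for the 6 genes (above the line) and 5 other named genes (below it) in each tumor, with blue for lower and red for higher. EGR1 ranges from −4.77 to −1.55 among combination tumors while IER3 stays between −4.30 and −3.71, and lenvatinib replicate 1 is at −2.07 for IER3.

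Tumors of 1 group also differed together in some of these genes. DUSP6, the ERK phosphatase that ERK induces, had 6.04, 9.71 and 15.8 CPM in the combination tumors, 2.70, 5.07 and 7.62 CPM in the H3B-6527 tumors, 62.0, 97.9 and 92.9 CPM in the lenvatinib tumors and 77.7, 92.9 and 71.1 CPM in the vehicle tumors. EGR1 ranked the tumors in the order of DUSP6 in 4 of 4 groups. IER2, IER3 and IER5 did so in 2 of 4 groups, EGR3 in 1 and EGR2 in 0. An order of 3 tumors can match by coincidence, and the share over all genes is not given here. As a description over the 12 libraries, deviations of log2 CPM from the group means correlated with r = 0.92 between EGR1 and DUSP6, 0.63 between EGR1 and IER3 and 0.11 between EGR1 and IER2, values that share each library's scaling and depth. Between DUSP6 and the other members r was 0.67 for EGR3, 0.59 for IER3, 0.15 for IER5, 0.14 for EGR2 and −0.14 for IER2.

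The genes with the most alike pattern over the 12 tumors were sought by the root mean square difference of centred log2 CPM. For EGR1 these were DUSP6 (0.52), the ERK feedback inhibitor SPRY4 (0.59) and the stress-induced cytokine GDF15 (0.63), against a median of 2.17 over all genes. For IER3 they were SPRY4 (0.38), GDF15 (0.40) and the ephrin receptor EPHB3 (0.41), against 2.11. SPRY4 had 0.392 ± 0.198 CPM with the combination, 0.201 ± 0.189 with H3B-6527, 2.89 ± 1.49 with lenvatinib and 5.01 ± 0.04 with vehicle (SD, n = 3 each). IER2 was closest to SH3TC1 (0.19), DAGLA (0.21) and TSPAN14 (0.22), against 0.81. IER5 was closest to ZBTB10 (0.09), FAM111A (0.10) and MINDY2 (0.11), against 0.34. EGR2 had the ERK phosphatase gene DUSP4 (0.39, against 0.97) behind 2 loci with clone names, and EGR3, at few counts, had FEZF2 (0.37), IQCJ-SCHIP1 (0.42) and CLDN23 (0.43), against 0.77.

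The closest relatives outside the set were IER5L and EGR4. EGR4 had no counts in any of the 12 tumors. IER5L, a paralog of IER5, had 0.154, 0.217 and 0.377 CPM in the H3B-6527 tumors, against 3.49, 3.97 and 3.68 CPM in the vehicle tumors. It fell by 3.96 ± 0.43 (SE, adjusted p = 1.30e-05 by edgeR, n = 3 per group), where IER5 did not pass. The H3B-6527 tumors had 6, 8 and 9 counts of IER5L, so the size of this fall depends on few counts. With the combination IER5L had 0.632, 0.276 and 0.457 CPM (20, 8 and 18 counts) and fell by 3.01 ± 0.39 (adjusted p = 4.55e-05). Lenvatinib replicate 1 was again low, at 1.48 CPM against 3.98 and 3.59 in the other lenvatinib tumors.

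NAB2, the co-repressor that EGR proteins induce and that in turn restrains them, averaged 5.13 ± 0.27 CPM with H3B-6527 and 16.7 ± 0.79 CPM with vehicle (SD, n = 3 each) and fell by 1.70 ± 0.33 (SE, adjusted p = 0.00117 by edgeR). It fell by 1.41 ± 0.32 with the combination (adjusted p = 0.00332), at 6.27 ± 0.74 CPM. NAB1 fell by 0.29 ± 0.11 with H3B-6527 (adjusted p = 0.0415) and had −0.26 ± 0.11 with the combination (adjusted p = 0.0646). In a list of 14 tested genes reported as EGR1 targets, NAB1 and NAB2 among them, 10 were lower and 3 higher with H3B-6527 (median log2 fold change −1.32, against 0.01 over all genes tested). The background was 25.2% of all genes higher and 24.3% lower. The combination also had 10 lower and 3 higher (median −1.37, against 0.01, with 24.8% of all genes higher and 25.3% lower). With H3B-6527 the cytokine GDF15 fell (−4.40 ± 0.44), as did the adhesion receptor ICAM1 (−3.77 ± 0.29), the matrix protein THBS1 (−2.61 ± 0.25) and the growth factor PDGFA (−1.47 ± 0.17). Among those that rose in both comparisons were PDGFB and IGF2, which like TIPARP, DUSP1, TRAF1, DNAJA1 and HSF1 below were named after their values were seen.

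Transcripts of upstream regulators were taken as a pair of lists, and for these and the lists after them the shares over all genes are 24.3% lower and 25.2% higher with H3B-6527, and 25.3% lower and 24.8% higher with the combination. Of 6 SRF and ternary complex factor genes, 5 fell and 1 rose with H3B-6527 (median −0.50) and likewise with the combination (median −0.44). SRF fell by 0.56 ± 0.10 with H3B-6527 (adjusted p = 4.61e-04 by edgeR), as did the ternary complex factor ELK3 (−1.56 ± 0.16) and the SRF coactivator MKL1 (−0.55 ± 0.12), whereas MKL2 rose by 0.62 ± 0.10. Of 11 ERK cascade genes tested, 3 were lower and 2 higher with H3B-6527 (median −0.06), and 4 lower and 2 higher with the combination (median −0.01), shares near those over all genes. The kinase gene BRAF rose by 0.65 ± 0.09 with H3B-6527, while RPS6KA3, which encodes a kinase activated by ERK, fell (−0.53 ± 0.08).

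Among 31 other immediate early genes tested, 22 fell and 1 rose with H3B-6527 (median −0.99), and 20 fell and 2 rose with the combination (median −0.82). With H3B-6527, MYC fell (−2.78 ± 0.17), as did the orphan receptor gene NR4A1 (−3.11 ± 0.34) and the matricellular genes CYR61 (−2.48 ± 0.15) and CTGF (−2.83 ± 0.26) (adjusted p between 4.13e-07 and 1.44e-05 by edgeR). TIPARP, a dioxin-induced ADP-ribosyltransferase, rose by 0.56 with H3B-6527 and by 0.66 with the combination, and the phosphatase gene DUSP1 rose by 0.85 with the combination. All 15 ERK-induced feedback genes tested fell with H3B-6527 (median −2.80) and with the combination (median −2.27). With H3B-6527 the values were −2.80 ± 0.20 for SPRED1 and −3.36 ± 0.26 for SPRY1, both inhibitors of ERK signaling, and −3.87 ± 0.29 for the ERK-responsive factor ETV5.

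NF-kB also induces IER3, and IER5 acts with HSF1. Of 12 NF-kB feedback genes, 8 fell and 1 rose with H3B-6527 (median −0.73), and 6 fell and 1 rose with the combination (median −0.78). With H3B-6527 the NF-kB subunit genes RELB (−1.26 ± 0.19), NFKB2 (−0.76 ± 0.13) and NFKB1 (−0.70 ± 0.12) and the inhibitor gene NFKBIE (−1.19 ± 0.18) fell, and TRAF1 rose by 1.07. Of 12 genes for HSF1 and its heat shock targets, 4 fell and 2 rose with H3B-6527 (median −0.35), and 4 fell and 1 rose with the combination (median −0.35), with falls near the share over all genes and rises below it. With H3B-6527 the chaperone genes HSPA8 (−0.60 ± 0.17) and HSPH1 (−0.56 ± 0.21) and the cochaperone gene BAG3 (−0.45 ± 0.13) fell, while HSPA1A rose by 0.56 ± 0.17 and DNAJA1 by 0.56. HSF1 had −0.18 (adjusted p = 0.103) with H3B-6527 and fell with the combination (−0.24, adjusted p = 0.0330). With lenvatinib no member of these lists was called, as 0% of all genes tested. At an unadjusted edgeR p under 0.05 there were 7 of 31 other immediate early genes and 4 of 14 reported EGR1 targets. There was 1 each of 15 feedback, 11 ERK cascade, 12 NF-kB and 12 HSF1 list genes, and 0 of 6 SRF list genes. The share over all genes was 10.7%.

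**Figure D4:**
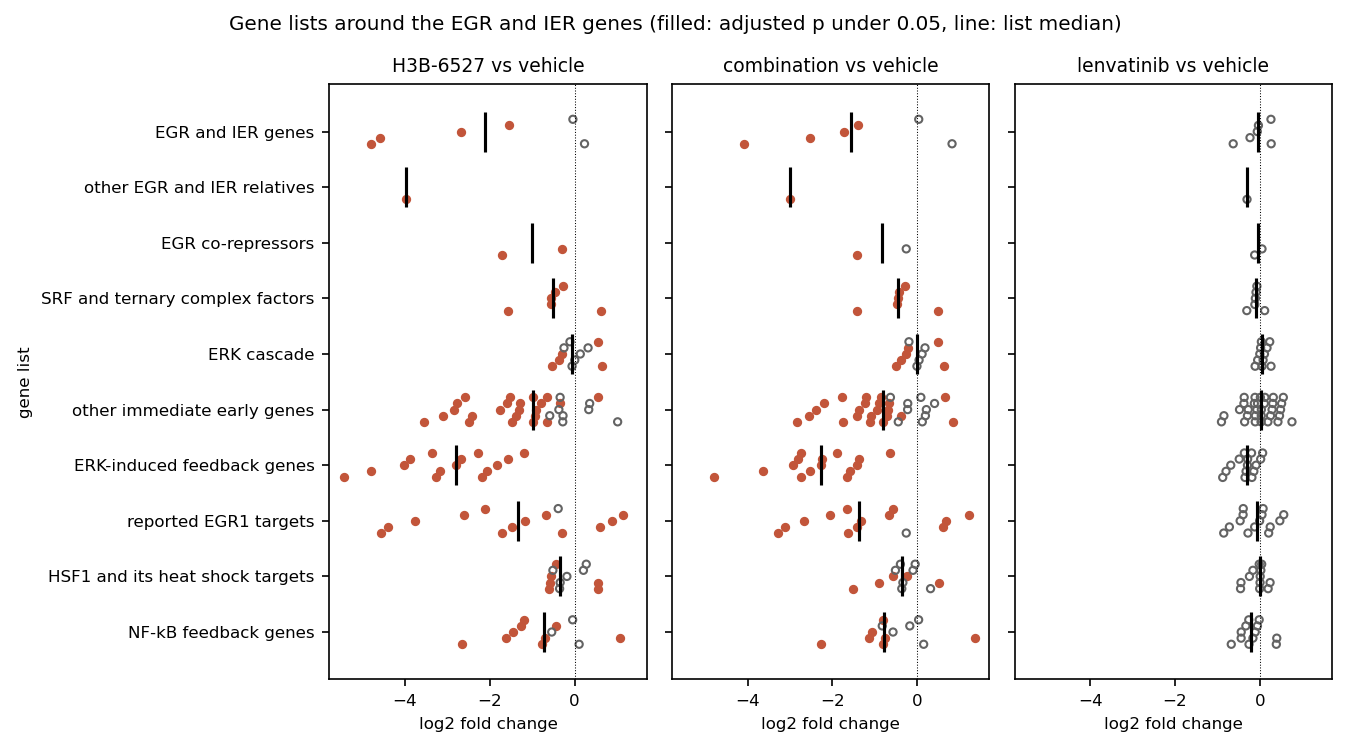
Log2 fold change against vehicle of each tested gene in 10 lists, with 1 panel each for H3B-6527, the combination and lenvatinib, where filled points have adjusted p under 0.05 and the black line is the list median. The list of relatives holds IER5L only, the feedback genes have medians of −2.80 and −2.27, and the ERK cascade has medians of −0.06 and −0.01.

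Markers of stromal, innate immune and endothelial cell types were looked up by human symbol. The hosts are mice, so these values cannot be assigned to host cells or to Hep3B cells. The summed level of 8 fibroblast and pericyte markers ran from 32.2 to 37.2 CPM with the combination, 27.5 to 36.9 with H3B-6527, 49.1 to 54.5 with lenvatinib and 50.5 to 56.3 with vehicle, with DCN at 0 in every lenvatinib and vehicle tumor. Most of that sum was PDGFRB, with means of 27.2 CPM with H3B-6527 and 43.8 with vehicle. The sum of 10 macrophage and neutrophil markers ran from 235 to 268 CPM with the combination, 204 to 292 with H3B-6527, 207 to 222 with lenvatinib and 223 to 244 with vehicle, with S100A8 at 0 in every tumor. Its largest members moved in opposite directions. Mean LYZ was 9.50 CPM with H3B-6527 and 107 with vehicle, but CD68 was 156 against 93.0 and CSF3R 70.9 against 29.8. PTPRC was 0.761 against 0.379. The shares over all genes were 24.3% lower and 25.2% higher with H3B-6527 and 25.3% lower and 24.8% higher with the combination. Of 5 fibroblast and pericyte markers tested, 3 fell with H3B-6527, and 3 fell and 1 rose with the combination. Of 8 macrophage and neutrophil markers tested, 3 rose and 1 fell with H3B-6527, and 4 rose and 1 fell with the combination. Of 10 hepatic markers, 6 rose and 1 fell with H3B-6527, and 7 rose with the combination. Of 8 proliferation markers, 5 fell with H3B-6527 and 7 with the combination. None of the 7 endothelial markers passed the low-count filter, and their summed level was at most 0.628 CPM, with KDR at 0 in H3B-6527 and lenvatinib tumors, CDH5 in lenvatinib tumors and EMCN in vehicle tumors. The part of these differences in the values of the EGR and IER genes was not tested.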

How the data were processed

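The deposited table holds expected counts, estimated reads per gene symbol whose totals differ between libraries, so no scaling was apparent. STAR, kallisto, GRCh37 and GRCm38 are named in the submitters' processing notes; for versions, roles, annotation and read filters, nothing is given in the sources used here. Although the samples carry a mouse label, the table lists human symbols, and removal of mouse reads is not stated. No human annotation was used, so positions, lengths and sequences are not reported.

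Counts were rounded, filtered with filterByExpr and tested with edgeR 4.0.16 in R 4.3.3 (TMM, robust quasi-likelihood F-test, 2-sided, 12 libraries in 1 fit of 4 group means), with Benjamini-Hochberg adjustment over 15836 genes and a threshold of 0.05. SE is the absolute log2 fold change over the square root of F. Log2 CPM values use a prior count of 2. Counting intervals and exact permutation tests used scipy 1.17.1; such intervals cover counting error only. Library totals ran from 23.8 to 40.9 M. The procedure was tested on simulated data in which few genes changed, equally up and down, in the H3B-6527 group only. Many more genes were called in these data, so that test does not check the scaling used here. Alternatives were DESeq2 1.42.0, voom in limma 3.58.1, library totals, no low-count filter, 2-group fits and leaving out each library.

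Named genes were the 6 members, DUSP6, up to 4 genes of each list with the smallest p against vehicle (H3B-6527 or combination), and the 3 most alike genes per member. FOS, in 1 figure, and genes said to be named after their values were seen stand outside this rule. Some genes that the rule names are not reported here. The members, lists and tests were chosen with earlier results of these data known. The labels give no batch and no link between animals, and replicate numbers only name tumors.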

Additional observations from a re-analysis of the deposited data

How the results depend on the processing

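Each of the 6 comparisons kept its number of called members within 1.5 times under every alternative run. With H3B-6527 against vehicle, 4 of 6 were called in all 11 alternatives. Of 421 fold changes of members under alternatives, 395 kept their direction and side of the threshold, 6 lost a call, 1 gained one and 19 changed sign, none of which had been called. EGR1 lost its call when 2 groups were fitted alone, at −2.52 for the combination against vehicle and −2.45 against lenvatinib. By setting, EGR3 with H3B-6527 against vehicle was −0.26 with voom, and IER5 with the combination against vehicle was −0.11 with library totals. With single libraries left out, values against vehicle ran from −0.25 to 0.82 for EGR3 and −0.16 to 0.11 for IER5 with H3B-6527, from −0.026 to 0.11 for IER5 with the combination, and, with lenvatinib, from −0.36 to 0.23 for EGR1, −0.58 to 0.20 for EGR2, −0.57 to 0.59 for EGR3 and −0.29 to 0.16 for IER2. In the combination against H3B-6527 they ran from −0.0029 to 1.08 for EGR3 and −0.074 to 0.19 for IER5, and in the non-additivity contrast from −0.26 to 1.15 for EGR3. The cause was not tested. Library totals shifted the median of all genes by −0.12 with H3B-6527 and by −0.15 with the combination against vehicle. No mean level of a member moved by more than its SD under library totals or DESeq2 size factors (48 values). No paired analysis was possible because the labels give no replicate numbers that link tumors. DESeq2 gave no adjusted p for EGR2 and EGR3 with lenvatinib against vehicle and with the combination against H3B-6527, or for EGR3 in the non-additivity contrast. Depth limits EGR2 and EGR3, which had 1 to 20 counts per tumor.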
